A study of Mus musculus with 2 samples.

Results

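Genes that bring iron into macrophages, move it between compartments, store it, export it and release it from heme were examined by RNA sequencing of peritoneal macrophages without treatment (nontreated, NT) or after 6 h of IL-4. The set held 10 genes, grouped by their known function in iron handling, of 15623 genes listed in at least 1 of the 2 libraries. They were Tfrc, Slc11a1, Slc11a2, Hmox1, Fth1, Ftl1, Ncoa4, Slc40a1, Cp and Hamp. Each was found through its NCBI gene number, 9 of them were listed in the NT library and all 10 in the IL-4 library. Both groups were wild type mice of the C57BL/6 strain, aged 6 to 8 weeks by the methods of the study. Their macrophages were elicited into the peritoneal cavity by injection of thioglycolate, purified by adherence and kept in low-serum medium before use. By their labels the groups differed only in IL-4. Each held 1 library, and whether a library pooled several mice was not stated. Any other difference between the 2 libraries cannot be told apart from that of IL-4. The labels give peritoneal macrophages as the source and bone marrow as the tissue.

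Macrophages recycle most of the iron that the body uses, mainly by digesting aged red cells. Transferrin-bound iron enters through the transferrin receptor, heme is opened by heme oxygenase, and the iron that is set free is either stored inside ferritin or exported through ferroportin, which the hormone hepcidin removes from the membrane. When iron in the cell is scarce, iron regulatory proteins bind stem-loops called iron-responsive elements (IREs). Binding in the 5′ untranslated region blocks translation, whereas binding in the 3′ untranslated region protects the mRNA from decay, so a ferritin mRNA level is not a measure of ferritin protein.

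Stretches with the letters of an IRE are shown because those found lay before the coding sequence in some genes of this set and after it in Tfrc. The search looked for a C, a stem of 5 bases, the loop letters CAGTGN and then 5 bases able to pair with the stem (G-T pairs allowed), on the sense strand of GENCODE M21 transcripts (GRCm38). The loop of 6 bases is in capitals. In 1 of 3 protein-coding transcripts of Tfrc (plus strand), 4 matches lay in the 3′ untranslated part of the last exon, exon 19, at chr16:32631220-32631246, chr16:32631599-32631625, chr16:32631664-32631690 and chr16:32631711-32631737.
Tfrc match 1: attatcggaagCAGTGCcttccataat
Tfrc match 2: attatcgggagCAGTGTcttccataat
Tfrc match 3: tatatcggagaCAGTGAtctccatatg
Tfrc match 4: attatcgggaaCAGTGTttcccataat

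The ferritin genes each held 1 match, in the 5′ untranslated part of exon 1. The match was in 4 of 5 protein-coding transcripts of Fth1 and in 1 of 2 of Ftl1. That of Fth1 lay at chr19:9982733-9982759 (plus strand) and that of Ftl1 at chr7:45459780-45459806 (minus strand), and they differed at 2 of 27 bases.
Fth1: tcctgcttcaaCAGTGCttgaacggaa
Ftl1: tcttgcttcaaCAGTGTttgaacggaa

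Slc40a1 also held 1 match in the 5′ untranslated part of exon 1, in 1 of 4 protein-coding transcripts. No match was found in the protein-coding transcripts of Slc11a1, Slc11a2, Hmox1, Ncoa4, Cp or Hamp, which says only that these letters with full pairing were not present. The search misses elements with other loop letters or an unpaired stem base. It therefore does not show that a gene lacks an IRE, or that Tfrc has no more than 4. Of 21901 protein-coding genes, 294 (1.34%) held at least 1 match and 5 held 2 or more in 1 transcript. A match is a description of the letters and not a measured binding site.

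Upon IL-4 stimulation, the transferrin receptor gene Tfrc rose about 4-fold and the ferroportin gene Slc40a1 fell from a low level, while the other 8 genes did not pass the thresholds. Of the 8, the heavy ferritin chain gene Fth1 came nearest to a call, and the light chain gene Ftl1 had nearly equal shares of the counts in both libraries. A call needed a size of 0.75 or more on the log2 scale, an exact binomial p of at most 0.05 and a Benjamini-Hochberg (BH) value of at most 0.5 over all genes, the limits that the study set for this comparison. The ratio used counts scaled to the library totals (CPM) with 0.5 count added. Of the 10 genes 1 was called higher and 1 lower (20.0%), against 4.07% called higher, 6.28% called lower and 10.4% called in either direction among all 15593 genes tested. The share of 20.0% rests on 2 genes and was not tested against that of all genes. With 1 library per group there was no replicate check, so the test compares the reads of these libraries and not the conditions. The intervals below are exact 95% intervals that cover counting error only.

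The NT library held 11035641 expected counts and the IL-4 library 11250099, so that 3 counts, taken as the floor, corresponded to 0.272 and 0.267 CPM. All 7 macrophage markers were listed, including Cd68, Lyz2 and Adgre1, with summed levels of 16984 CPM in NT and 17356 CPM in IL-4, and 1 of them, Csf1r, was called higher (log2 ratio 0.90). The 6 markers of bone marrow progenitors summed to 3.90 and 6.13 CPM, with Mpo in neither library and Cd34 called higher, from 31 to 64 counts. Summed markers of red cells, B cells, T cells, neutrophils, eosinophils, mast cells, mesothelial cells and hepatocytes were between 0.181 and 10.3 CPM in NT and between 0.267 and 8.80 CPM in IL-4. Among them Siglecf (53 to 27 counts), Msln (12 to 2) and Hbb-bt (8.76 to 0) were called lower, and the part of such cells in the results below was not tested. Of 6 adipocyte markers, Plin1, Cidec, Lep and Cfd were listed in neither library, whereas Adipoq had 0 counts in NT and 139 in IL-4 and Fabp4 was abundant in both. Fewer cells of a type and less RNA per cell cannot be told apart in such bulk samples.

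**Figure D1:**
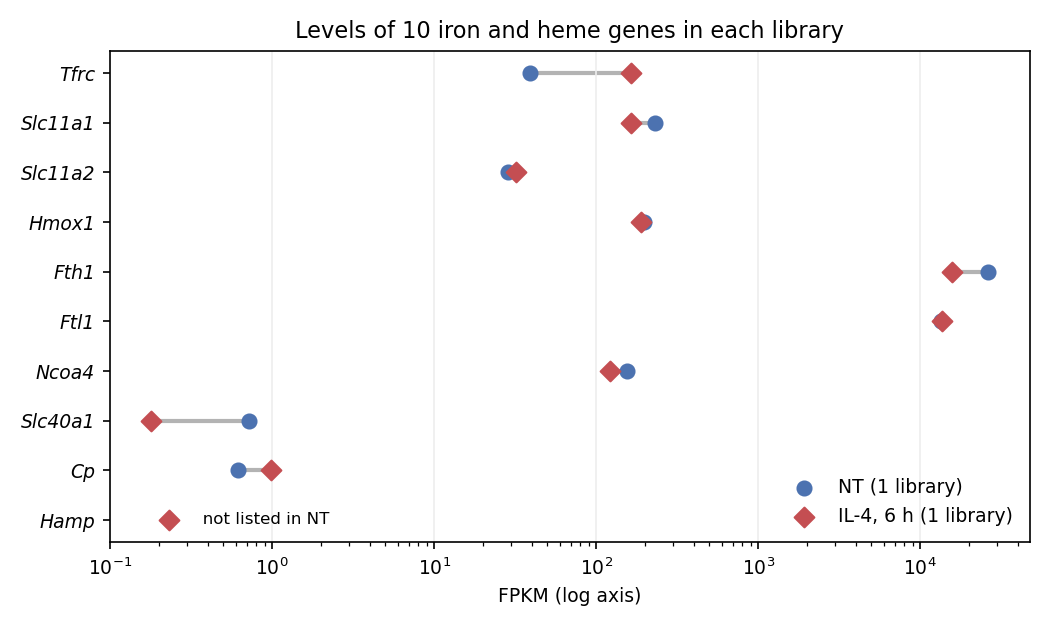
Level of each of the 10 genes in FPKM, on a log axis, in the NT library (circles) and the IL-4 library (diamonds), 1 library each. The genes span from under 1 FPKM (Slc40a1, Cp, Hamp) to 26195 FPKM (Fth1 in NT), and the widest gaps between the libraries are those of Tfrc and Slc40a1.

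Tfrc (gene 22042, chromosome 16, 32608896 to 32632794, GRCm38) encodes transferrin receptor 1, which carries iron-loaded transferrin into endosomes. Its expected counts were 2148 in NT and 9144 in IL-4. Per length of transcript, its level was 39.1 FPKM in NT and 163 FPKM in IL-4. This was a rise of 2.06 on the log2 scale (interval 1.99 to 2.13), or 4.18-fold. In abundance, Tfrc moved from rank 1774 to rank 452 among the genes ordered by FPKM.

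Of all tested genes 2.91% had a higher log2 ratio than Tfrc. In the IL-4 library 131 genes, Tfrc included, had at least as many counts as Tfrc, and 18 of them were called higher. Only Chil3 and Fcgr2b among them, which were identified after their values were seen, had a higher log2 ratio. That group was set by the library in which Tfrc was high, so it is no support for the size of the rise. By counts, Tfrc was at rank 800 in NT and 131 in IL-4. The Tfrc transcript is long (4920 bases), and genes close to it in length had a median log2 ratio of -0.19 between these libraries. With that median, called the length trend below, subtracted, the ratio of Tfrc was 2.26. The call was kept under each alternative except an assumed biological coefficient of variation of 0.4. At that setting none of the 10 genes was called, against 0.468% of all genes. Tfrc is also abundant in red cell precursors, and the 5 red cell markers that were listed together had 74 counts in NT and 57 in IL-4, with Slc4a1 in neither library.

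Slc40a1 (gene 53945, chromosome 1, 45908070 to 45926532) encodes ferroportin, the only known exporter of iron from animal cells. Its expected counts were 27 in NT and 7 in IL-4. Its level was 0.72 FPKM in NT and 0.18 FPKM in IL-4, ranks 10907 and 12420. The gene was thus near the lower end of what was detected in both libraries, although above the floor of 3 counts.

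The log2 ratio of Slc40a1 was -1.90, and the interval was wide, from -3.42 to -0.74, so that its upper end lay just inside the threshold. The median ratio of genes close to it in length was -0.01 and did not alter the call. With 1 added to each FPKM, which shrinks the ratios of weakly expressed genes, the ratio was -0.54 and the call was lost. It was also lost with an assumed coefficient of variation of 0.4.

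The ratio of Tfrc to Slc40a1 does not depend on how the libraries are scaled. In FPKM it was 54.4 in NT and 908 in IL-4. In counts it rose 16.4-fold, with an exact interval from 6.96 to 44.7 that is wide because of the few Slc40a1 reads. Both genes contribute to this value.

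**Figure D2:**
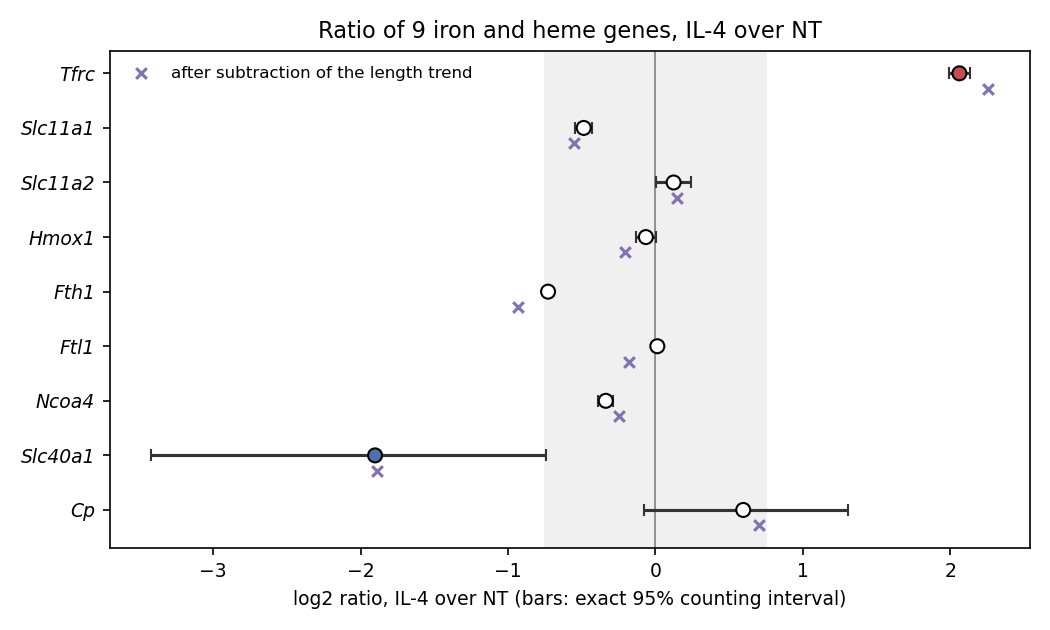
Log2 ratio of IL-4 over NT for the 9 genes listed in both libraries, with exact 95% counting intervals; the grey band marks ratios under 0.75 in size, filled circles are called genes and crosses show the ratio less the median of genes alike in length. Tfrc lies far to the right at 2.06, Slc40a1 to the left at -1.90 with a wide bar, and Fth1 at the edge of the band at -0.73, outside it after the subtraction.

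Ferritin is a shell of heavy and light chains, in which the heavy chain oxidizes iron for storage and the light chain favors the mineral core. Fth1 and Ftl1 were the most abundant genes of either library in FPKM, at ranks 1 and 2. Together they took 3.72% of all counts in NT and 2.77% in IL-4.

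Fth1 (gene 14319, chromosome 19, 9980600 to 9985111), the heavy chain gene, had 266575 expected counts in NT and 164002 in IL-4. Its level was 26195 FPKM in NT and 15800 FPKM in IL-4. Its log2 ratio of -0.73 (interval -0.74 to -0.72) lay just inside the threshold of 0.75. At this depth counting error was negligible, so the interval says nothing of the spread between mice.

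Whether Fth1 was called therefore rested on the rule. With a fold change over 1.5 and a BH value of at most 0.05, as in the methods of the study, it was called lower. That rule called 12.6% of all genes in either direction. The Fth1 transcript is short (942 bases), and genes close to it in length had a median ratio of 0.20. With that subtracted its ratio was -0.93, again a call. Of 14 genes with at least 50000 counts in NT, Fth1 had the lowest log2 ratio, and the other 13 ran from -0.56 to 0.49. This group was set by NT, where Fth1 was higher, and leaves out any gene that reached that count only in IL-4. Fth1 shared 7.18% of its 31-base words with other annotated genes, none of which was listed in either library.

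Ftl1 (gene 14325, chromosome 7, 45457944 to 45459886), the light chain gene, had 143519 expected counts in NT and 147590 in IL-4. Its level was 13451 FPKM in NT and 13561 FPKM in IL-4. Its log2 ratio of 0.01 (interval 0.002 to 0.023) was close to 0, and the sign changed with the scaling and with the correction for length. The value of Ftl1 is uncertain, since 82.9% of its words occurred in other annotated genes, most of them in Ftl1-ps1. None of the 30 genes that share its words was listed, so reads from such copies could have been assigned to Ftl1.

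The balance of the chains was accordingly different between the libraries. In FPKM the ratio of Fth1 to Ftl1 was 1.95 in NT and 1.17 in IL-4. In counts the ratio in IL-4 was 0.598 of that in NT, with an exact interval from 0.593 to 0.604. This ratio is free of library scaling, but reads from Ftl1 copies would enter it.

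Ncoa4 (gene 27057, chromosome 14, 32159879 to 32179855) encodes the receptor that takes ferritin to the lysosome, where its iron is released. It had 6837.53 expected counts in NT and 5518 in IL-4, or 154 and 122 FPKM. Its log2 ratio of -0.34 (interval -0.39 to -0.29) was below 0 beyond counting error but was not a call. Relative to Fth1, its count in IL-4 was 1.31 times that in NT, with an interval from 1.27 to 1.36. A processed pseudogene, Gm6768, held 40.4% of the words of Ncoa4 and was not listed in either library.

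Hmox1 (gene 15368, chromosome 8, 75093618 to 75100593) encodes heme oxygenase-1, the inducible enzyme that opens the heme ring and frees its iron. It had 3534 expected counts in NT and 3444 in IL-4, or 197 and 188 FPKM. The interval of its log2 ratio of -0.06 ran from -0.133 to 0.003 and included 0. With the length trend subtracted the ratio was -0.21 (counting interval -0.28 to -0.14, without the error of the trend), which was not a call. Its transcript shared no word with another annotated gene. Hmox1 lay at rank 338 in NT and 390 in IL-4, far above Slc40a1 in both libraries. The ratio of Hmox1 to Slc40a1 was 273 in NT and 1045 in IL-4 in FPKM, and in counts it rose 3.76-fold, with an interval from 1.59 to 10.2. Of the pair, Slc40a1 alone was called.

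The paralogous transporters Slc11a1 and Slc11a2 move divalent metals out of phagosomes and endosomes. Slc11a1 (gene 18173, chromosome 1, 74375014 to 74386057) encodes Nramp1, the phagosomal transporter known for its part in resistance to intracellular bacteria. It had 5883.57 expected counts in NT and 4280.81 in IL-4, or 231 and 165 FPKM. On the log2 scale the difference was -0.49 (interval -0.54 to -0.43), short of a call.

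Slc11a2 (gene 18174, chromosome 15, 100387898 to 100424209) encodes DMT1, which passes iron from transferrin through the endosomal membrane. It had 1093.89 expected counts in NT and 1214.58 in IL-4, or 28.7 and 31.9 FPKM. On the log2 scale the difference was 0.12 (interval 0.005 to 0.243), which excluded 0 but was not called. The rise of Tfrc was thus not accompanied by a called rise of the transporter that acts after it. In FPKM, Slc11a1 was 8.04 times Slc11a2 in NT and 5.16 times in IL-4. In counts this ratio in IL-4 was 0.655 of that in NT, with an interval from 0.598 to 0.718. The weighted length of Slc11a2, which depends on the share of each transcript, was 3425 bases in NT and 3359 in IL-4.

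Cp (gene 12870, chromosome 3, 19956933 to 20009750) encodes ceruloplasmin, the copper enzyme that oxidizes exported iron for transferrin. It had 30.99 expected counts in NT and 48 in IL-4, or 0.62 and 0.98 FPKM. Its log2 ratio was 0.60, and the interval, -0.08 to 1.30, included 0 as well as ratios past the threshold. With the length trend subtracted the ratio was 0.70 (counting interval 0.03 to 1.41, without the error of the trend), again not a call. Relative to Slc40a1, its count rose 5.88-fold, with an interval from 2.16 to 18.0. Slc40a1, which fell, was the only called gene of this pair, so the value does not show a rise of Cp. Cp, like Slc40a1, was under 1 FPKM in both libraries.

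Hamp (gene 84506, chromosome 7, 30942368 to 30944029) encodes hepcidin, a hormone made mainly by the liver. It had 0 counts in NT, which allows a level of up to 0.272 CPM, and 1 count in IL-4. Both values were at or under the floor, and no ratio is given. Hamp2, its copy, had 1 count in NT and 0 in IL-4 and held 33.7% of the words of Hamp. Hepcidin mRNA was therefore not detectable above the floor in either library. Of 5 markers of liver cells, Alb, Ttr, Apoa1 and Fgb were listed in neither library, and Apoa2 had 2 counts in NT and 3 in IL-4.

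**Figure D3:**
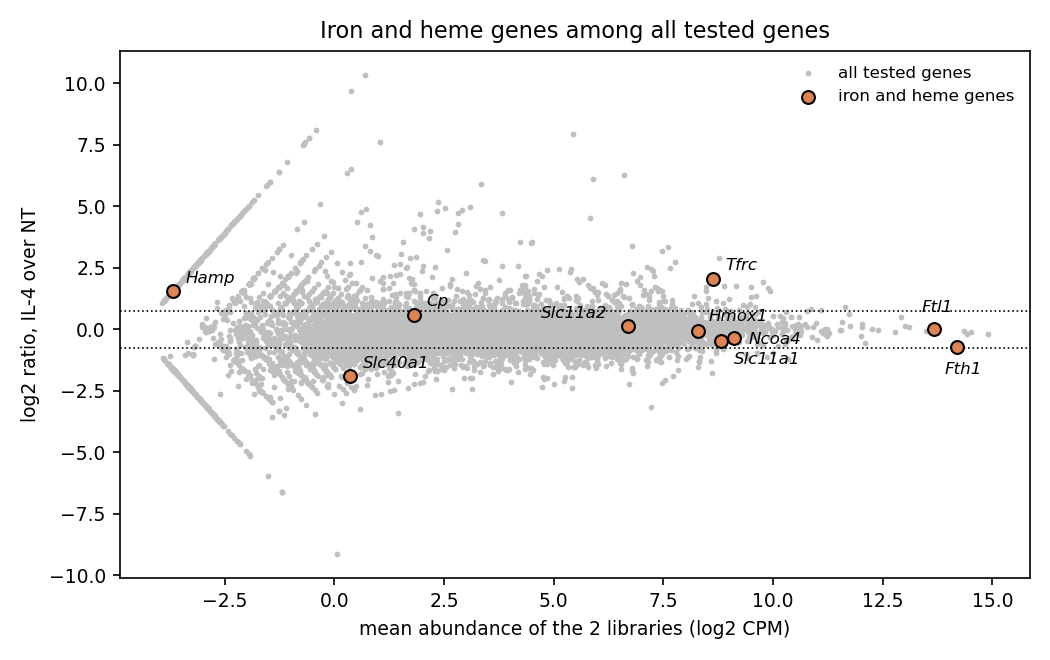
Log2 ratio of IL-4 over NT against mean abundance (log2 CPM) for all 15593 tested genes (grey), with the 10 iron and heme genes in orange and the threshold of 0.75 dotted. Fth1 and Ftl1 lie at the far right among the most abundant genes, Tfrc stands above the cloud at 2.06, and Hamp lies at the left edge where a single count sets the value.

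Across the 9 genes without Hamp the median log2 ratio was -0.06, against -0.03 for all tested genes. Of the 9 ratios 4 were above 0, among them that of Ftl1, whose sign depended on the processing, and 5 were below. The 7 genes with at least 200 reads had a median of -0.06, against 0.00 for all 8463 such genes, of which 9.41% were called. The other 3, Slc40a1, Cp and Hamp, had fewer reads.

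To place the 10 genes in their pathway, 82 other genes in 5 functional lists were examined, of which 79 had reads. Of these 79 genes, 2 rose and 7 fell (11.4%), against the 10.4% of all genes given above. Their median log2 ratio was -0.08, against -0.03 for all genes, and -0.05 against 0.00 among those with at least 200 reads. With the length trend subtracted, 2 rose and 3 fell (6.33%), against 8.72% of all genes, so the order of the shares depended on the length trend. With 1 added to each FPKM 2 rose and 3 fell (6.33%), against 5.07% of all genes. With an assumed coefficient of variation of 0.4 none of the 79 was called, against 0.468% of all genes. The difference of these shares was not tested.

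In the list for iron uptake and reduction, 1 of 14 genes rose and 2 fell, with a median of -0.24, which was 0.16 over the 5 genes with at least 200 reads. Hfe, the MHC-like protein that binds transferrin receptor 1, rose from 176 to 420 counts (log2 ratio 1.22, interval 0.97 to 1.49). Steap4, a metalloreductase, fell from 55 to 20 counts (log2 ratio -1.46). Steap2, a related reductase, fell from 54 to 23.58 counts (log2 ratio -1.21), but was at -0.71 once the length trend was subtracted and then no longer called. With 1 added to each FPKM neither Steap gene was called. Trf, the gene of transferrin, had the highest level of the list, at 63.8 FPKM in NT and 75.6 FPKM in IL-4, and was not called.

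Of 15 tested genes of the hepcidin axis and ferroxidases, 0 rose and 2 fell, with a median of -0.30, which was -0.10 over the 6 genes with at least 200 reads. Bmp2, a growth factor that induces hepcidin in the liver, fell from 119 to 65 counts (log2 ratio -0.90). The call of Bmp2 was kept with the length trend subtracted but lost with 1 added to each FPKM, with a coefficient of variation of 0.2 and where a log2 ratio of 1 was required. Neo1, the receptor neogenin, fell from 94 to 54 counts (log2 ratio -0.82), but its ratio was -0.41 with the length trend subtracted. Furin, a protease that cleaves prohepcidin among other proteins, had the highest level, at 39.7 and 53.3 FPKM, and a log2 ratio of 0.42 that was not called.

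Of 16 genes for heme capture and breakdown, 0 rose and 1 fell, with a median of -0.13. The gene that fell was Lrp1, a large scavenger receptor that takes up heme bound to hemopexin, from 21671 to 9495 counts (log2 ratio -1.22). Its transcript is very long (14907 bases), and with the length trend subtracted the ratio was -0.68, no longer a call. The regulators of Hmox1 were not called. Bach1, a repressor that heme releases from DNA, had 1455 counts in NT and 1437 in IL-4, and Nfe2l2, the activator Nrf2, had 4517 and 4186 (163 and 149 FPKM). Spic, a factor of red pulp macrophages, had 4 counts in NT and 3 in IL-4. Cd163, the receptor for haptoglobin-bound hemoglobin, had 3.42 and 11.02 counts, with an interval from -0.07 to 4.33 on the log2 scale.

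Of 11 genes for iron sensing and handling inside the cell, 0 rose and 1 fell, with a median of 0.02. The iron regulatory proteins themselves had nearly equal levels in both libraries. Aco1 (IRP1) had 1116.42 counts in NT and 1151.42 in IL-4 (log2 ratio 0.02, interval -0.10 to 0.14). Ireb2 (IRP2) had 617 and 630 counts (log2 ratio 0.00, interval -0.16 to 0.16). Since both proteins are controlled by iron after transcription, these levels do not measure their binding to IREs.

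Pcbp1, a chaperone that delivers iron to ferritin, had the highest level of that list, at 180 and 188 FPKM, and was not called. Herc2, a ubiquitin ligase for Ncoa4, fell from 1060 to 562 counts (log2 ratio -0.94), but was at -0.41 with the length trend subtracted. Bdh2 had 3 counts in NT and 1 in IL-4.

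Of 23 genes for heme synthesis, iron-sulfur cluster assembly and mitochondrial iron, 1 rose and 1 fell, with a median of 0.05. Cisd1, an iron-sulfur protein of the outer mitochondrial membrane, rose from 136 to 543 counts (log2 ratio 1.97, interval 1.70 to 2.25). Slc25a37 (mitoferrin-1), which carries iron into mitochondria, fell from 387 to 130 counts (log2 ratio -1.60, interval -1.90 to -1.31). Both calls were kept after subtraction of the length trend. Tmem14c, a carrier of heme precursors, had 91.3 FPKM in NT and 94.0 in IL-4, the highest level of the list when both libraries are summed, and was not called.

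**Figure D4:**
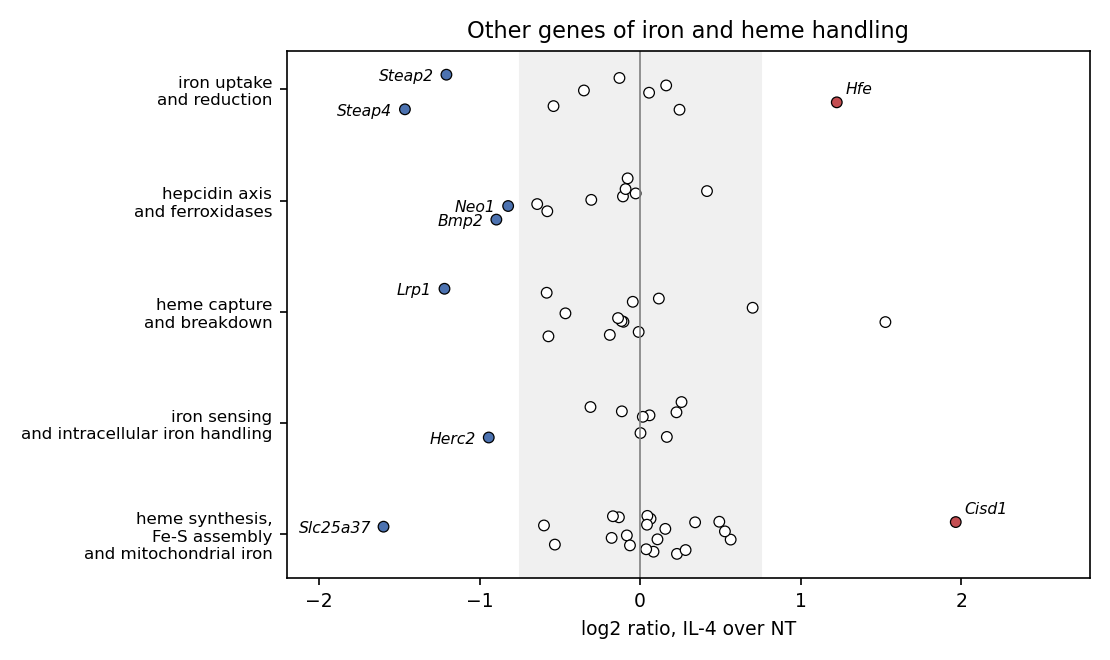
Log2 ratio of IL-4 over NT for the 63 pathway genes with at least 10 counts in 1 library, by list; called genes are filled and named, red for higher and blue for lower, and the grey band marks ratios under 0.75 in size. Most genes lie within the band, Hfe and Cisd1 are the called genes to the right, and 1 gene past the band without a call, Cd163, rests on few reads.

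The calls of Tfrc, Slc40a1 and Fth1 differed in how much they rested on the processing. Over 11 alternatives the log2 ratio of Tfrc ran from 2.03 to 2.26, that of Slc40a1 from -1.92 to -0.54, and that of Fth1 from -0.93 to -0.69. Tfrc was called in 10 of the 11, Slc40a1 in 9 and Fth1 in 2. The remaining genes of the set were called in none of them.

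**Figure D5:**
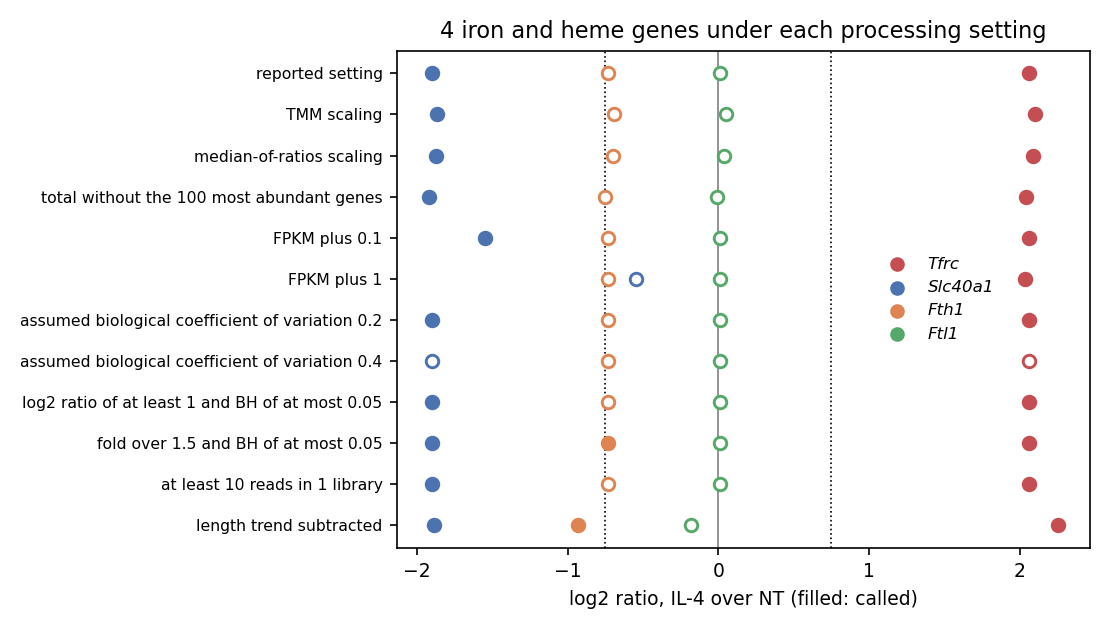
Log2 ratio of IL-4 over NT for Tfrc, Slc40a1, Fth1 and Ftl1 under the reported setting and each of 11 alternatives; filled circles are called and dotted lines mark 0.75 in size. Tfrc stays right of 2 throughout, Fth1 stays next to the lower line and Ftl1 next to 0, and Slc40a1 moves inside the lines with 1 added to each FPKM.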

How the data were processed

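Total RNA was column-purified and sequenced by BGI on an Illumina HiSeq. Per the labels and the study's methods, the authors aligned the reads with Bowtie to the mouse genome (GRCm38/mm10) and estimated gene levels by RSEM, versions not given in the sources used here. The deposited values are expected counts, which RSEM estimates per gene with no depth scaling, and FPKM, which the authors scaled for transcript length and depth. The deposited length column is in bases, weighted over transcripts. A gene absent from a table was set to 0. Symbols and gene positions came from a RefSeq table (GRCm38.p6), which matched 15587 of 15623 genes, and IREs and shared words from GENCODE M21 transcripts.

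Expected counts were rounded, 30 genes without reads were left out, and the IL-4 reads of each gene were tested against the IL-4 share of the totals (exact binomial test, smaller tail doubled, BH adjustment over 15593 genes). Ratios between genes have exact conditional intervals. Since reads were amplified by PCR and carry no molecular identifiers, intervals and floors cover counting error only. The length trend of a gene was taken from genes with 200 or more reads, as the median log2 ratio over its neighbours in length. Its subtraction moved both ends of an interval by the same amount, and the error of the trend itself was not included. The procedure was tested on simulated libraries that held counting error only, with large changes put into genes of higher counts. That test does not cover variation between mice, weakly expressed genes such as Slc40a1, or a change as small as that of Fth1. Alternatives were TMM scaling and an exact test that assumes a set biological variation (coefficient 0.2 or 0.4), both with edgeR 4.0.16, the size factors of DESeq2 1.42.0, other totals, thresholds and filters, FPKM, and the length trend. Python 3.11.15, scipy 1.17.1 and R 4.3.3 were used.

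The 10 genes, the lists and the alternatives were chosen with earlier results of these data known. From each list were named the called genes with at least 50 counts, the gene of highest FPKM summed over both libraries, and regulators or copies of the 10 genes. Chil3, Fcgr2b, Cd163, Abcg2, Bmpr2 and Slc25a28 were named after their values were seen.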

Additional observations from a re-analysis of the deposited data

How the results depend on the processing

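No paired analysis was possible because there was 1 library per group. Of 99 ratios of the 9 genes without Hamp under 11 alternatives, 92 kept their sign and their side of the thresholds. Ftl1 turned from 0.01 to -0.0071 with a total that left out the 100 most abundant genes and to -0.18 with the length trend subtracted. Among the 10 genes, 1 was called higher and 1 lower. An assumed coefficient of variation of 0.4 gave 0 higher and 0 lower, FPKM plus 1 gave 0 lower, and both the rule of a fold over 1.5 and the length trend gave 2 lower (Slc40a1 and Fth1).

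Of the pathway genes, 2 were higher and 7 lower. A coefficient of 0.4 gave 0 and 0. The lower genes were 3 with FPKM plus 1, 4 with a coefficient of 0.2, 4 where a log2 ratio of 1 was required (BH of at most 0.05), 3 after subtraction of the length trend (Bmp2, Slc25a37 and Steap4), 6 with FPKM plus 0.1 (without Neo1) and 9 with a fold over 1.5 (Bmpr2 and Slc25a28 added), where 3 were higher (Abcg2 added). An added constant shrinks ratios of low FPKM, and what caused the other changes was not tested. Over all genes, 1614 were called, 790 with FPKM plus 1, 813 and 73 with a coefficient of 0.2 and 0.4, 884 where a log2 ratio of 1 was required, 1359 with the length trend subtracted and 1961 with a fold over 1.5. The 3 other scalings moved every ratio by at most 0.04. In FPKM all 6 ratios between genes stayed within their intervals. Sums of Fth1 or Ftl1 with their copies were not run, since no copy was listed. Hamp has no value with a minimum of 10 reads. Depth limits Slc40a1, Cp and Hamp.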
